A study of Rattus norvegicus with 57 samples.

Results

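The mitosis genes are a named set of 42 genes that encode the proteins of chromosome condensation, spindle assembly and cell cleavage. They were chosen by gene symbol, and 38 of the 42 had a probe set of their own among the 14217 genes measured. Kif4a, Ncapg and Ndc80 had no probe set named for them here, and Anln appeared only on a probe set shared with a second gene. The kidneys came from 57 male Han Wistar rats, 8 weeks old, given a single intraperitoneal injection of 0, 1 or 3 mg/kg cisplatin, a platinum compound that crosslinks DNA. All groups, controls included, received the saline vehicle. Tissue was a homogenate enriched in cortex, taken 3, 5, 8 or 26 days after dosing, and each rat was measured on its own Affymetrix rat expression array. Of the 12 combinations of dose and day, 10 had 5 arrays; 4 arrays came from controls at day 26 and 3 from rats at day 5 after 1 mg/kg, whereas the design text names 6 rats per group.

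A cell that divides makes most of these transcripts only as it nears mitosis and destroys many of the proteins as it leaves it. B-type cyclins with the kinase Cdk1 drive entry, checkpoint kinases hold the cell until every chromosome is attached to the spindle, and motor proteins with a guanine exchange factor then split the cytoplasm. In resting cells the DREAM repressor complex sits on a sequence called the CHR (cell cycle genes homology region) and keeps many of these promoters silent, while the activator NF-Y binds CCAAT boxes in the same promoters. The tubule of an adult kidney divides little, and surviving tubular cells are known to enter the cell cycle after injury.

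Promoter sequences are shown because most of these genes moved together and many share the same short words near their start. RefSeq windows of 300 bases, from 250 before to 50 after each start site on build GRCr8, were used for 32 of the 38 measured genes, and windows of Ccna2, Aurkb, Ube2c, Pbk, Racgap1 and Foxm1 were not analysed here. The letters TTTGAA or TTCGAA, the core of the CHR, and CCAAT were searched on both strands, and a match of one overlapped a match of the other in 2 of these promoters. A CHR core was present in 21 of the 32 windows (65.6%) and in 19.5% of all 27457 promoter windows. CCAAT was present in 25 of the 32 (78.1%) and in 37.7% of all windows, and both together in 18 of the 32 (56.2%) and in 7.8% of all. A match is a description of letters, not of a bound site. The windows of 3 cyclin or kinase genes that rose and of Melk, the gene that fell, are printed 5′ to 3′ along the gene, with matches to either word on either strand in capitals.
Ccnb2 (chr8:79981609-79981908, minus strand): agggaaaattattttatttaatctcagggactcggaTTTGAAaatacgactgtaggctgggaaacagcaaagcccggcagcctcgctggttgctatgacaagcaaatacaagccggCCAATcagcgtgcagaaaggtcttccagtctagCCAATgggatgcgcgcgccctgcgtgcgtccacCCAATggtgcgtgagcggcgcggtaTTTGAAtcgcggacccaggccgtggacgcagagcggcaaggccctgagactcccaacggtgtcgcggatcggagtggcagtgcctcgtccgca
Cdk1 (chr20:19265043-19265342, plus strand): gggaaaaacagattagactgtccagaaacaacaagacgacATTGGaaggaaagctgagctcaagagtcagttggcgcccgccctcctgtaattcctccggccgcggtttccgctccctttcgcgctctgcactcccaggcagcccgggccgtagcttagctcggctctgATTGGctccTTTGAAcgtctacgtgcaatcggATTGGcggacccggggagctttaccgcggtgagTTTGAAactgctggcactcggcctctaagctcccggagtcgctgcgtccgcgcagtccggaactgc
Ccnb1 (chr2:33655176-33655475, minus strand): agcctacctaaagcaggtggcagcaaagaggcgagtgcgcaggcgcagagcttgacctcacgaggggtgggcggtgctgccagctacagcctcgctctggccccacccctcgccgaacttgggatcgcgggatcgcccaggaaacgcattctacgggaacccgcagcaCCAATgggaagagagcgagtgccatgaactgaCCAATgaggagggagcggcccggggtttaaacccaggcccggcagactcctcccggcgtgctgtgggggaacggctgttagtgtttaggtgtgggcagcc
Melk (chr5:63335901-63336200, plus strand): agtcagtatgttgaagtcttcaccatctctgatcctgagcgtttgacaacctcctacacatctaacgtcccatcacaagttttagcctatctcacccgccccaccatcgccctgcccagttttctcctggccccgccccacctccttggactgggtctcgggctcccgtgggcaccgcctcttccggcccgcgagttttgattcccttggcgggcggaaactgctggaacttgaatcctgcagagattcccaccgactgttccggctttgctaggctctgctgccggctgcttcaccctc
In Ccnb2 the CCAAT matches began at -134, -101 and -68 from the start site and the nearer CHR core at -43. Cdk1 had 2 CHR cores and 3 CCAAT matches, 1 of its CHR cores at -16. Ccnb1 had 2 CCAAT matches, at -82 and -50, and no CHR core of these letters. Melk had neither word, nor had Aurka, Bub1 and Kif2c, which rose on day 8.

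The deposited values were MAS5 signals on a linear scale, and array medians ran from 20.3 to 26.2. Changes are differences of group means of log2(signal + 16) with the standard error of a limma fit over all 57 arrays, and a gene was called when its adjusted p, by Benjamini-Hochberg over all 14217 genes, was under 0.05. Because most mitosis transcripts were dim, the added 16 makes their changes smaller than those of the signals. Signals of different genes come from different probe sets and are not compared with each other. In whole tissue, a change in the number of dividing cells and a change in RNA per dividing cell cannot be told apart. To describe the tissue, the summed signal of 9 proximal tubule markers lay between 19320 and 27689 in the control rats. No reference value was set beside it. In control day 8 replicate 3, 35 of the 38 genes lay above the control mean, with a median difference of 0.41, so day 8 results are also given without this rat.

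On day 8 after 3 mg/kg, 31 of the 38 mitosis genes rose and 1 fell. Higher calls made up 18.3% of all genes tested in this comparison, and 30.9% were called in either direction. The median change of the mitosis genes was 0.54, against 0.05 for all genes. Of the 38, 37 had positive changes and Melk a negative one, under the deposited scaling, quantile normalization and centring on the 75th percentile alike. In 8 genes every treated rat lay above every control, a pattern seen in 8.57% of all genes. Without control replicate 3 the count called was 34, 33 higher and 1 lower.

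**Figure D1:**
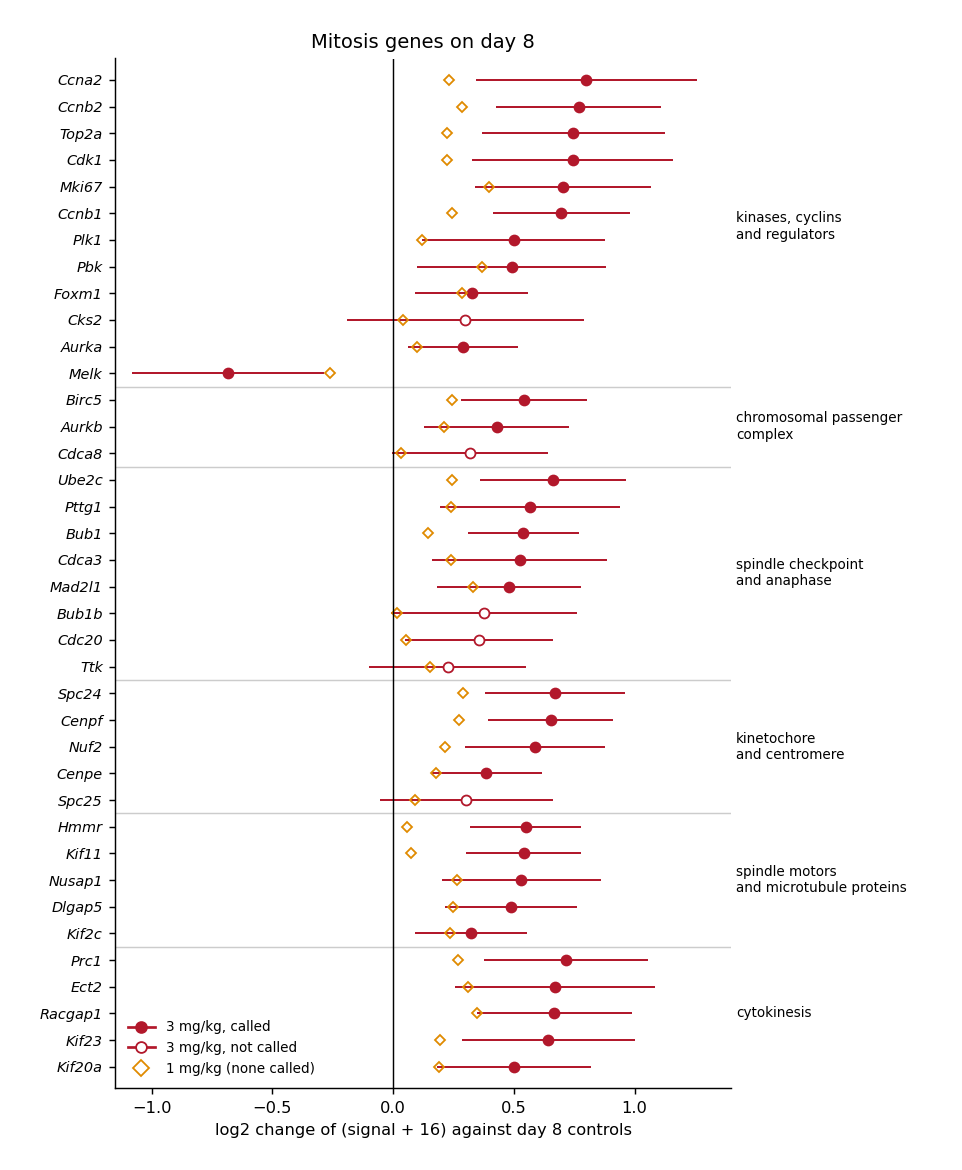
Log2 change of (signal + 16) on day 8 for each of the 38 mitosis genes, grouped by role. Filled circles are 3 mg/kg changes that were called, open circles those that were not, bars are 95% confidence intervals of the fit, and diamonds are 1 mg/kg changes; 37 circles lie to the right of 0 and Melk lies to the left.

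The markers of division and mitotic entry that rose included Mki67 and Top2a. Mki67 encodes Ki-67, the protein used to stain dividing cells. Its day 8 signals were 40.7, 36.7, 68.3, 38.9 and 39.997 in control replicates 1 to 5 and 114, 61.9, 117, 60.5 and 69.3 after 3 mg/kg. All treated rats exceeded 4 of the 5 controls, and replicates 2 and 4 stayed under control replicate 3. The change was 0.70 ± 0.18 (limma, adjusted p = 0.00193, n = 5 per group).

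Top2a, the topoisomerase that disentangles replicated chromosomes, had control signals of 29.1, 21.4, 44.8, 29.2 and 30.0 and treated signals of 74.3, 34.7, 96.4, 51.5 and 65.4. Only treated replicate 2 lay under the highest control, and the change was 0.75 ± 0.19 (limma, adjusted p = 0.00156, n = 5 per group). A second Top2a probe set changed by 0.62.

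The cyclins and their kinase rose together. Ccnb1, cyclin B1, had control signals of 19.9, 31.3, 44.5, 21.8 and 21.8 and treated signals of 61.6, 60.9, 52.5, 41.0 and 54.6, so that 4 of 5 treated rats lay above every control. It rose by 0.70 ± 0.14 (limma, adjusted p = 9.26e-05, n = 5 per group). For Cdk1 the control signals were 37.7, 25.4, 70.8, 42.4 and 37.1 and the treated signals 110, 64.8, 91.3, 52.6 and 88.8. It rose by 0.74 ± 0.20 (limma, adjusted p = 0.00397, n = 5 per group), with control replicate 3 again inside the treated range. Ccnb2 rose by 0.77 ± 0.17 and Ccna2, the cyclin of S phase and mitotic entry, by 0.80 ± 0.23.

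Foxm1 encodes the factor that activates many genes of this set, and its probe set was dim, as was that of Plk1. Foxm1 signals were 15.2, 11.7, 15.6, 10.1 and 7.28 in controls and 22.8, 16.02, 17.7, 19.2 and 18.6 after 3 mg/kg, without overlap, for a change of 0.32 ± 0.11 (limma, adjusted p = 0.0249, n = 5 per group). Plk1, a polo-like kinase of the spindle and centrosome, had control signals of 2.62, 8.02, 12.1, 10.5 and 7.98 and treated signals of 20.8, 13.996, 23.6, 14.2 and 18.3, also without overlap. Its change was 0.50 ± 0.19 (limma, adjusted p = 0.0352, n = 5 per group).

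Aurka, a centrosomal kinase, had control signals of 15.0, 15.1, 30.1, 18.3 and 17.9 and treated signals of 34.6, 21.4, 30.2, 19.8 and 29.0, with overlap through control replicate 3 alone. It was called at 0.29 ± 0.11 (limma, adjusted p = 0.0421, n = 5 per group). The kinase gene Pbk rose by 0.49 ± 0.19, while Cks2, a small CDK-binding protein, was at 0.30 ± 0.24 (limma, adjusted p = 0.374). Over the alternatives the adjusted p of Aurka in limma ran from 0.00631 to 0.193, that of Plk1 from 0.0147 to 0.164 and that of Foxm1 from 0.0166 to 0.145. Aurka lost its call without control replicate 1, 2, 4 or 5 or treated replicate 1, 3 or 5, Plk1 without control replicate 1, 2 or 5 or treated replicate 1, 3 or 5, and Foxm1 without control replicate 4 or 5 or treated replicate 1. A second, dimmer Foxm1 probe set was at -0.02.

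Melk encodes a kinase, and its transcript fell. Its animals are described because the direction differed, a choice made after its values were seen. Control signals were 82.2, 139, 50.5, 56.0 and 53.9, and the 3 mg/kg signals were 57.4, 23.0, 60.1, 29.1 and 32.6. Treated replicates 2, 4 and 5 lay under every control, and replicates 1 and 3 among the controls. The change was -0.68 ± 0.20 (limma, adjusted p = 0.00579, n = 5 per group). Without control replicate 2, the highest, no mitosis gene was called lower, and the same was true when day 8 controls and 3 mg/kg rats were fitted by themselves.

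In the chromosomal passenger complex, which corrects faulty spindle attachments, 2 of 3 members rose. Birc5, which encodes survivin, had control signals of 21.5, 24.8, 18.7, 13.5 and 22.9 and treated signals of 38.7, 38.3, 36.9, 25.8 and 44.6. The groups did not overlap, and the change was 0.54 ± 0.13 (limma, adjusted p = 0.000842, n = 5 per group). Aurkb, the kinase of the complex, had control signals of 16.5, 17.1, 26.7, 19.8 and 19.8 and treated signals of 47.8, 25.9, 36.4, 22.6 and 32.2, with treated replicates 2 and 4 under the highest control. It was called at 0.43 ± 0.15 (limma, adjusted p = 0.0217, n = 5 per group), with limma adjusted p from 0.0106 to 0.096 over the alternatives, the call being lost without control replicate 1 or 2 or treated replicate 1. Cdca8, which encodes borealin, was at 0.32 ± 0.16 (limma, adjusted p = 0.126).

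Of the 8 spindle checkpoint and anaphase genes, 5 rose. Bub1, a checkpoint kinase, had control signals of 11.0, 12.6, 21.0, 12.4 and 15.3 and treated signals of 31.3, 29.1, 31.0, 22.7 and 26.5, without overlap. It rose by 0.54 ± 0.11 (limma, adjusted p = 0.000184, n = 5 per group). The checkpoint protein gene Mad2l1 rose by 0.48 ± 0.15, also without overlap. Ube2c, the conjugating enzyme of the anaphase-promoting complex, rose by 0.66 ± 0.15. Pttg1, which encodes securin, the guard of sister chromatid cohesion, rose by 0.57 ± 0.18 and Cdca3 by 0.52 ± 0.18.

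The other 3 genes of this role had positive changes that were not called. Ttk, the kinase that starts the checkpoint, had control signals of 5.74, 5.47, 18.1, 7.08 and 11.4 and treated signals of 24.7, 8.65, 19.3, 7.72 and 10.3, with the groups interleaved. Its change was 0.23 ± 0.16 (limma, adjusted p = 0.299, n = 5 per group). Bub1b, which encodes the checkpoint protein BubR1, was at 0.37 ± 0.19 (limma, adjusted p = 0.131) and Cdc20, the activator of the anaphase-promoting complex, at 0.36 ± 0.15 (limma, adjusted p = 0.068). The 5 probe sets of Cdc20 ranged from 0.05 to 0.36.

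Kinetochore genes rose in 4 of the 5 measured. Cenpf, a large kinetochore protein of late G2 and mitosis, had control signals of 12.6, 15.9, 20.1, 11.3 and 21.2 and treated signals of 36.7, 26.5, 43.5, 28.7 and 37.8, without overlap. It rose by 0.65 ± 0.13 and had the smallest adjusted p of the set (limma, adjusted p = 6.44e-05, n = 5 per group). Spc24 and Nuf2, subunits of the complex that grips spindle microtubules, rose by 0.67 ± 0.14 and 0.59 ± 0.14, and their partner Spc25 was at 0.30 ± 0.18 (limma, adjusted p = 0.195). Cenpe, a kinetochore motor, was called at 0.39 ± 0.11 without overlap, from a mean signal of 0.856 ± 0.349 (SD, n = 5) in controls to 6.25 ± 3.49. Yet on 0 of 57 arrays did it exceed the 40th percentile of all signals. Its control means on other days were higher, at 5.36 on day 3, 3.87 on day 5 and 3.34 on day 26.

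All 5 measured spindle motor and microtubule genes rose. Kif11, the motor that pushes spindle poles apart, rose by 0.54 ± 0.12, and the spindle assembly genes Hmmr, Nusap1 and Dlgap5 rose by 0.55 ± 0.11, 0.53 ± 0.16 and 0.49 ± 0.13. Kif2c, a kinesin that dismantles microtubule ends, rose by 0.32 ± 0.11. All 5 measured cytokinesis genes rose as well. Prc1, which bundles the central spindle, rose by 0.72 ± 0.17, Ect2, the exchange factor that starts the cleavage furrow, by 0.67 ± 0.20, Racgap1 and Kif23, partners in the centralspindlin complex, by 0.67 ± 0.16 and 0.64 ± 0.18, and the cytokinesis motor gene Kif20a by 0.50 ± 0.16. A dimmer Kif23 probe set was at 0.08.

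**Figure D2:**
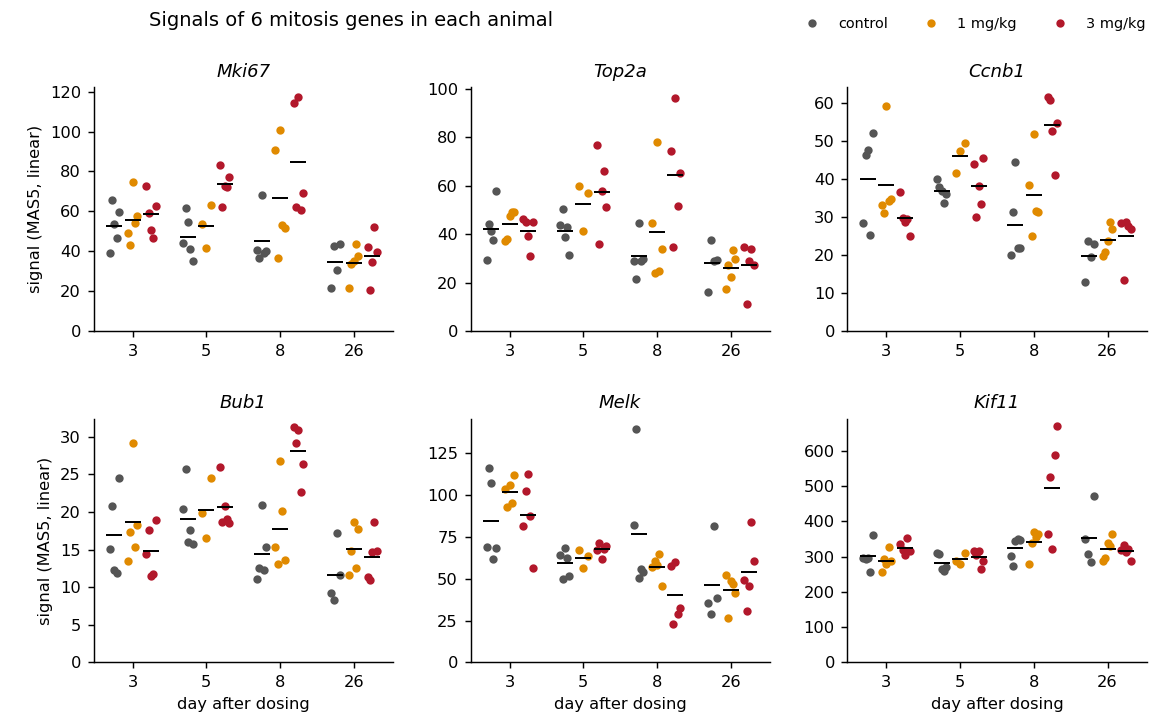
MAS5 signals (linear axis from 0) of 6 mitosis genes in each rat by day, with black bars at group means. Mki67, Top2a, Ccnb1 and Bub1 are highest after 3 mg/kg on day 8, while Melk is lower there. Kif11 in that group lies above every day 8 control in 4 of the 5 rats.

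The treated rats differed in how far the genes moved. The median difference of the 38 genes from the day 8 control mean was 0.72, 0.27, 0.71, 0.26 and 0.51 in 3 mg/kg replicates 1 to 5. Between 34 and 37 of the 38 genes lay above the control mean in each of them. Rats 2, 4 and 5 had Umod signals of 2.68, 21.6 and 5.37, against 785 and 921 in rats 1 and 3. Umod encodes uromodulin of the thick ascending limb, and its control signals ran from 2393 to 3177.

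Havcr1, the kidney injury marker KIM-1 of damaged tubules, was at 2177, 829, 680, 1581 and 1640 in the same order, and Cdkn1a, the cell cycle inhibitor p21, at 285, 381, 251, 574 and 547. The rats with the largest median differences, 1 and 3, had the highest Umod and Melk signals, while their Havcr1 signals were the highest and the lowest of the 5. Kif11 signals went the other way, at 363, 526, 322, 587 and 670, with replicates 2, 4 and 5 highest. These are descriptions of 5 rats, set side by side after their values were seen, and were not tested.

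**Figure D3:**
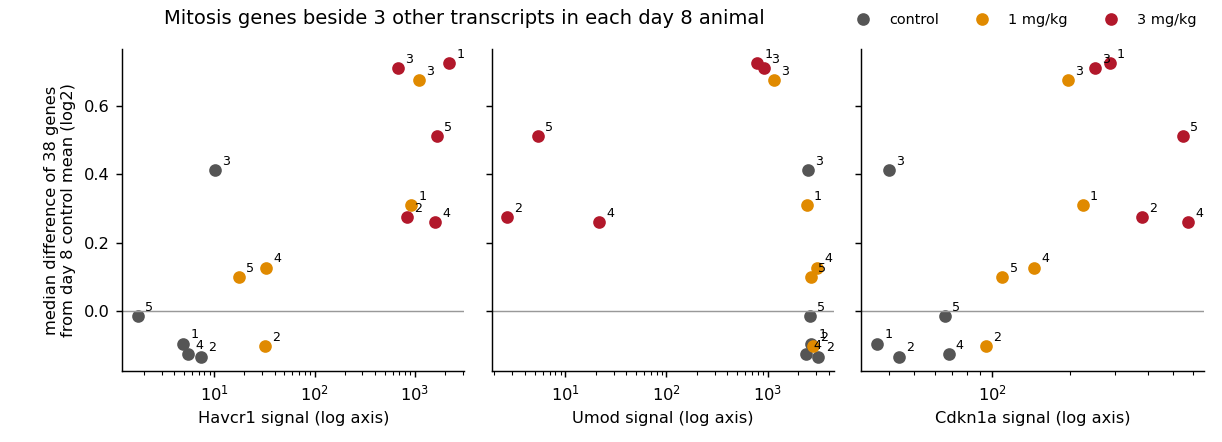
Median difference of the 38 mitosis genes from the day 8 control mean (log2) in each day 8 rat, numbered by replicate, beside its Havcr1, Umod and Cdkn1a signals on log axes. The 3 mg/kg rats 1 and 3 sit at 0.72 and 0.71 with Umod of 785 and 921, and rats 2, 4 and 5 lie lower with Umod under 22.

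Transcripts of other cell types moved in the same comparison, where 18.3% of all genes were higher and 30.9% were called in either direction. Of 11 macrophage markers, 6 rose, and their summed signal ran from 519 to 626 in controls and from 593 to 1013 after 3 mg/kg. The macrophage marker Adgre1 had a lower mean after 3 mg/kg, 44.8 against 59.4. Of 9 fibroblast and myofibroblast markers, 5 rose, with sums of 2446 to 2748 and 3571 to 4845. Of 9 lymphocyte markers only Ptprc was called, with sums of 117 to 133 and 123 to 272. No defining marker of these lists was listed at 0, but Itgam had a control mean of 0.823 and Cd79b one of 1.77. Loop and distal tubule markers fell in 6 of 7, with sums of 11690 to 12988 in controls and 913 to 5948 after 3 mg/kg. Collecting duct sums ran from 3659 to 4209 in controls and from 1329 to 3510 after 3 mg/kg, without overlap. Endothelial sums ran from 1379 to 1513 and from 1215 to 1392. Sums of the proximal tubule, podocyte and erythroid markers overlapped between the groups. Means within the proximal tubule list went both ways. Slc5a2 was at 822 ± 75.7 (SD, n = 5) in controls and 368 ± 181 after 3 mg/kg, and Miox at 3980 ± 275 and 4537 ± 123. The part of these cell types in the mitosis result was not tested. The 3′/5′ ratio of actin, a sign of RNA quality, averaged 5.30 ± 0.53 (SD, n = 5) in treated rats and 5.32 ± 0.48 in controls, and with this ratio as a covariate 32 genes were called.

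Further cell cycle genes, on lists drawn up with earlier results of these data known, gave the following day 8 counts at 3 mg/kg. Over all genes in that comparison, 18.3% were higher and 30.9% were called in either direction. Calls among the anaphase-promoting complex genes and the regulators of mitotic transcription were no more frequent than these shares. Of 66 measured of 80 other mitosis genes, 42 rose and 4 fell (median 0.34), led by Gtse1, a microtubule-associated regulator of p53, at 1.18 and the motor gene Kif15 at 0.72, with the centromere gene Cenpp at -0.71. Of 46 DNA replication and S phase genes, 19 rose and 2 fell (median 0.25), including the licensing genes Cdt1 at 0.66 and Mcm6 at 0.62 and the primase gene Prim2 at -0.67. Of 17 subunits and inhibitors of the anaphase-promoting complex, 2 rose and 1 fell (median -0.08), with Fbxo5 at 0.29, Anapc7 at 0.26 and Anapc11 at -0.25. Of 20 regulators of mitotic transcription, 3 rose and 1 fell, among them the atypical E2F factors E2f8 at 0.49 and E2f7 at 0.33 and the E2F partner Tfdp1 at 0.27. Of 13 CDK inhibitors and p53 arrest genes, 7 rose, with Cdkn1a at 2.63, Plk2 at 1.93 and Ccng1 at 1.45. Of 6 D cyclins and partners, Myc rose by 1.62 and Cdk4 by 0.25.

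At 1 mg/kg on day 8, 0 of 38 mitosis genes were called by limma, in a comparison where 0.366% of all genes were. At an unadjusted p under 0.05 there were 7 of 38, against 11.6% of all genes, and the smallest adjusted p in limma was 0.296, for Foxm1 at 0.28 ± 0.11. The median was 0.23, and 37 changes were positive, 33 with quantile normalization and 36 with centring on the 75th percentile. The other 6 were Mki67, Racgap1 (0.35), Mad2l1 (0.33), Spc24 (0.29), Cenpf (0.27) and Kif2c (0.24). The 5 rats spread widely, with median differences of 0.31, -0.10, 0.68, 0.13 and 0.10. Their Havcr1 signals were 912, 32.4, 1085, 32.9 and 17.6, so the same 2 rats, replicates 1 and 3, stood highest on both, and replicate 3 had the lowest Umod signal, 1157 against 2424 to 3075. Replicate 1 also had the highest actin 3′/5′ ratio of any array, 8.58.

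Single genes followed that spread. Mki67 signals at 1 mg/kg were 91.0, 36.4, 100.9, 52.9 and 51.4, and the change of 0.40 ± 0.18 was not called (limma, adjusted p = 0.379). Top2a was at 44.9, 23.9, 78.3, 24.6 and 33.9, Ccnb1 at 38.3, 25.1, 51.9, 31.6 and 31.4, and Cdk1 at 62.4, 22.9, 92.9, 51.7 and 41.8. In each of these 4 genes replicate 3 was highest and replicate 1 next. Melk did not follow, at 56.96, 60.3, 58.2, 64.8 and 45.9.

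Of the remaining genes followed rat by rat at 1 mg/kg, Foxm1 was at 22.01, 18.8, 25.05, 13.0 and 12.2, Aurkb at 29.0, 21.9, 41.2, 16.6 and 22.1, and Cenpf at 23.5, 15.1, 34.1, 22.5 and 20.3. Birc5 was at 30.5, 20.6, 35.7, 31.7 and 17.7, Bub1 at 15.3, 13.1, 26.8, 20.1 and 13.7, and Plk1 at 10.6, 1.29, 14.3, 10.2 and 17.2. Ttk was at 16.2, 7.51, 22.8, 4.66 and 12.0, and Aurka at 25.5, 16.4, 25.7, 19.7 and 20.5. Replicate 3 was highest in all of these but Plk1.

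Between the doses on day 8, 8 of 38 mitosis genes were called, all higher at 3 mg/kg, where 9.78% of all genes were higher and 18.6% were called in either direction. They were Top2a at 0.52 ± 0.19, Hmmr at 0.49 ± 0.11, Ccnb2 at 0.48 ± 0.17, Kif11 at 0.47 ± 0.12, Ccnb1 at 0.45 ± 0.14, Ube2c at 0.42 ± 0.15, Bub1 at 0.40 ± 0.11 and Cenpf at 0.38 ± 0.13. In none of them were the groups free of overlap. The count was 0 with only these 2 groups fitted. It was 18 when 1 mg/kg replicate 3 was left out and 13 when 3 mg/kg replicate 4 was. It fell to 3 or 4 when 1 mg/kg replicate 2 or 5 was dropped, and to 4, 5 or 4 in the absence of 3 mg/kg replicate 1, 3 or 5.

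Fewer mitosis genes were called on days 3 and 5. On day 3 at 3 mg/kg, 1 of 38 rose, against 4.27% of all genes higher and 7.53% called. It was Spc24, with control signals of 22.8, 51.4, 29.5, 25.5 and 33.7 and treated signals of 66.2, 57.3, 38.4, 41.7 and 43.8. Only control replicate 2 lay within the treated range, and the change was 0.44 ± 0.14 (limma, adjusted p = 0.0441). The call was lost without control replicate 1, 3, 4 or 5 or treated replicate 1, 2 or 5. Ccnb1 was at -0.26 ± 0.14 and Plk1 at -0.24 that day, neither called. Treated rats had a mean actin ratio of 5.89 ± 0.10 (SD, n = 5) that day and controls one of 4.66 ± 0.25, and with the ratio as a covariate 2 genes were called. At 1 mg/kg, 0 were called by limma (0.0703% of all genes), with 2 at an unadjusted p under 0.05 (5.7% of all genes).

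On day 5 at 3 mg/kg, 3 of 38 rose, against 4.11% of all genes higher and 6.89% called. In 9 genes every treated rat lay above every control, a pattern found in 4.44% of all genes, and 13 of 38 had an unadjusted p under 0.05, against 20.8% of all genes. Spc24 signals were 39.7, 30.9, 30.8, 26.7 and 30.6 in controls and 51.8, 50.4, 55.3, 55.2 and 50.3 in treated rats, without overlap, for a change of 0.53 ± 0.14 (limma, adjusted p = 0.0146). Ect2 signals were 56.4, 70.7, 54.7, 51.5 and 44.1 against 103, 85.6, 96.9, 86.9 and 99.2, also without overlap, at 0.63 ± 0.20 (limma, adjusted p = 0.0474). Aurkb was called at 0.48 ± 0.15 (limma, adjusted p = 0.0334), with 32.1, 26.5, 19.8, 17.0 and 17.3 in controls and 52.1, 28.5, 47.0, 33.3 and 29.8 in treated rats, which overlapped through control replicate 1.

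Mki67 (0.51), Cdk1 (0.51) and Ccna2 (0.51) also had treated rats above every control on day 5 without being called, whereas Ccnb1 was at 0.03, Birc5 at 0.04 and Bub1 at 0.07. The changes were positive in 37 of 38 genes under all 3 scalings. The count of 3 became 9 when only these 2 groups were fitted, and 1 without control replicate 3, 4 or 5 or treated replicate 1 or 3. The share of all genes called in these other fits was not counted. In the same comparison 10 of the 46 DNA replication genes and 11 of the 66 other mitosis genes rose and none of either list fell. Of all genes, 4.11% were higher there. At 1 mg/kg on day 5, with 3 arrays, 0 were called by limma (0.0141% of all genes) and 1 had an unadjusted p under 0.05 (3.92% of all genes).

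**Figure D4:**
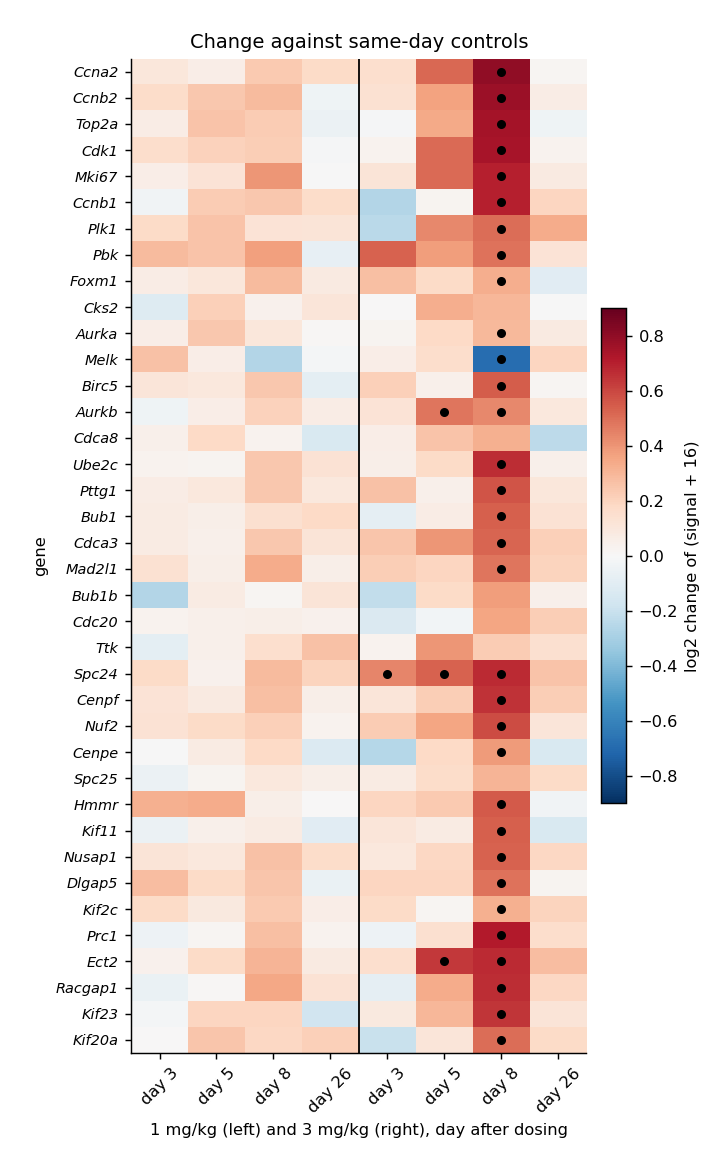
Log2 change of (signal + 16) of the 38 mitosis genes (rows) against same-day controls at 1 mg/kg (left 4 columns) and 3 mg/kg (right 4 columns), with black dots on called changes. All dots stand at 3 mg/kg, with 1 on day 3, 3 on day 5 and 32 on day 8.

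The 3 mg/kg effect was also compared directly between days. From day 3 to day 5, 0 of 38 were called by limma (0.971% of all genes), with 2 at an unadjusted p under 0.05 (15.1% of all genes). From day 5 to day 8, 3 were called (13.4% of all genes): Ccnb1 gained 0.67 ± 0.20 (limma, adjusted p = 0.0169), Bub1 gained 0.47 ± 0.16 (limma, adjusted p = 0.0392), and Melk shifted by -0.84 ± 0.28 (limma, adjusted p = 0.0349). Control means moved as well. For Ccnb1 they went from 36.9 on day 5 to 27.9 on day 8, and 3 mg/kg means from 38.2 to 54.1. For Bub1 the control means were 19.1 and 14.5 and the 3 mg/kg means 20.6 and 28.1. For Melk the control means were 59.1 and 76.4 and the 3 mg/kg means 67.4 and 40.5. For Mki67 the shift was 0.19 and for Ect2 0.04, and for Aurkb it was -0.06, none called. The count was 1 without control day 5 replicate 2, control day 8 replicate 1 or 3 mg/kg day 5 replicate 2. The first of these tests shares the day 5 samples with the second, and the second shares the day 8 samples with a test from day 8 to day 26, so their values are given side by side and not related to each other.

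From day 8 to day 26, 5 of 38 were called, against 11.6% of all genes. Top2a shifted by -0.79 ± 0.27, Kif11 by -0.67 ± 0.17, Hmmr by -0.58 ± 0.16 and Cenpe by -0.52 ± 0.16, and Melk by 0.88 ± 0.29. Cenpe did not exceed the 40th percentile of all signals on any array, and its day 8 controls were its lowest control group. Melk control means went from 76.4 on day 8 to 46.0 on day 26, and its 3 mg/kg means from 40.5 to 53.9. The median shift was -0.43, and 37 of the 38 were negative, 36 with quantile normalization, where Ttk turned positive. The count was 0 with only these 4 groups fitted and 11 without control day 8 replicate 3. Without control day 26 replicate 2 it was 2, and it was 3 without control day 8 replicate 1, control day 26 replicate 4 or 3 mg/kg day 8 replicate 5.

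By day 26 no mitosis gene was called by limma at either dose, with 0 of 38 at an unadjusted p under 0.05 in both. Over all genes 0.506% were called at 3 mg/kg and 0.00703% at 1 mg/kg, and 14.5% and 6.03% had an unadjusted p under 0.05. At 3 mg/kg the median was 0.11, with 31 changes positive, 22 with quantile normalization and 29 with centring. Mki67 signals were 21.7, 42.8, 30.7 and 43.6 in controls, 21.4, 33.7, 35.1, 43.6 and 37.8 at 1 mg/kg and 41.98, 20.8, 34.8, 52.2 and 39.5 at 3 mg/kg, with the 3 groups interleaved. Ccnb1 signals were 13.0, 23.7, 19.4 and 22.9, then 19.9, 20.6, 23.6, 28.8 and 26.9, then 28.3, 13.5, 28.6, 27.7 and 26.8. In 3 mg/kg replicate 2 the median difference was -0.19, while the other 4 rats lay between 0.06 and 0.32. Between the doses, limma called 0 of 38 on day 3 (2.31% of all genes), 0 on day 5 (3.2%) and 0 on day 26 (0%). At an unadjusted p under 0.05 there were 2, 2 and 0 of 38 on these days, against 17%, 17.1% and 9.75% of all genes.

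**Figure D5:**
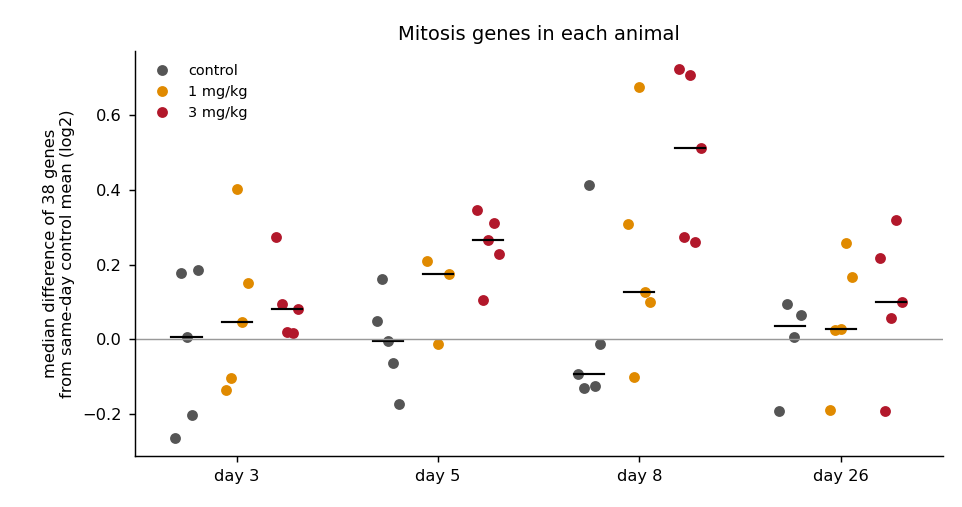
Median difference of the 38 mitosis genes from the mean of the same-day controls (log2) in each rat, with black lines at group medians. On day 8 the 3 mg/kg rats lie between 0.26 and 0.72, and 1 control lies at 0.41; on day 26 all groups spread around 0.

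The control rats changed with time as well. Of the 38 genes, 2 were lower on day 26 than on day 3, against 1.03% of all genes lower and 1.49% called. At an unadjusted p under 0.05 there were 27 of 38, against 11.8% of all genes, and in 12 genes every day 26 control lay below every day 3 control, against 2.69%. The median was -0.42, and 37 of 38 changes were negative under all 3 scalings. Ccnb1 signals in controls were 28.5, 46.2, 47.6, 25.2 and 52.1 on day 3 and 13.0, 23.7, 19.4 and 22.9 on day 26, a change of -0.63 ± 0.15 (limma, adjusted p = 0.015). Kif20a signals were 21.2, 36.3, 39.9, 27.7 and 35.8 and then 11.7, 20.7, 13.5 and 14.5, a change of -0.62 ± 0.17 (limma, adjusted p = 0.0382). Mean Mki67 signals in controls were 52.8 ± 10.6 (SD, n = 5) at day 3, then 47.4 ± 10.7 and 44.9 ± 13.1, and 34.7 ± 10.5 (n = 4) at day 26, with days 5 and 8 between, and the groups overlapped. The 2 calls were lost with only these groups fitted, and also without control day 3 replicate 3 or 5 or control day 26 replicate 1. There were 5 without control day 3 replicate 1, and 1 without control day 3 replicate 2 or 4 or control day 26 replicate 4.

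Rat by rat within groups, most of the genes moved together. After group means were removed, a gene's correlation with the mean of the other 37 over the 57 arrays had a median of 0.78, from 0.94 for Ect2 and 0.92 for Mki67 down to 0.24 for Cenpe, 0.21 for Melk and -0.03 for Kif11. The median over all pairs of the 38 was 0.53, and of the 14179 other genes 9 reached the members' median. The 10 genes nearest to the set, named after their values were seen, were Plk4, a centriole kinase, at 0.87, Cdkn3 at 0.86, Pclaf, a clamp-binding protein of replication, at 0.85, Fam111a at 0.84, Arhgap11a and Kif20b at 0.82, Lmnb1 and Esco2 at 0.80, Aspm at 0.79 and Spag5 at 0.78. The arrays of a group share their day and dose, and these correlations carry no test. Kif11 had a second probe set, at 0.40 on day 8, and its correlation with the others was -0.11.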

How the data were processed

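Kidney RNA from 57 rats was measured on 57 Affymetrix arrays, and groups, doses, days and replicate numbers came from the labels. The authors deposited linear intensity values for each probe set, which the submitters' processing notes credit to MAS5, of a version not given in the sources used here. Every array had been scaled alike: leaving out the top and bottom 2% of its values, the mean ran from 99.95 to 99.96. Names came from the platform annotation, updated with RefSeq; 20826 of 31099 probe sets had 1 symbol, 436 several and 9780 none. Each gene was its probe set with the highest mean of log2(signal + 16), giving 14217 genes, with no filter on low values, since 37 of the 38 genes passed a 40th-percentile filter and a filter can keep a gene through 1 group alone. limma 3.58.1 in R 4.3.3 fitted 12 group means over all arrays, with eBayes and an intensity trend, two-sided, and Benjamini-Hochberg adjustment within each contrast. Standard errors pool all groups, so a gene that varies more than the pool within 1 group has too small an error there. The number of arrays limits the precision. The fit was tested on simulated data in which each gene had the same spread in every group. That test does not cover a group that varies more.

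The members, gene lists and tests were chosen with earlier results of these data known. Named genes followed a rule: every measured member with its day 8 change, day 8 signals of every rat for Mki67, Top2a, Ccnb1, Cdk1, Foxm1, Aurkb, the 4 largest called changes without overlap and the 2 smallest changes, all called members in other contrasts up to 10, and up to 3 called genes per other list. Replicate numbers were not treated as pairs in the main fit. Within groups, arrays correlated at 0.972 to 0.993. Alternatives changed the offset, scaling, filter, probe set choice, eBayes settings, weights, covariate, block, samples fitted and replicates.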

Additional observations from a re-analysis of the deposited data

Results flagged for a closer look

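Of 143 sets of 4 or 5 rats examined, for 12 genes and for the median difference, 10 held a value standing apart from the rest, and chance alone gives about 5% of such sets. In control day 8 replicate 3, Mki67 was at 68.3 (the others 36.7 to 40.7), Aurka at 30.1 (the others 15.0 to 18.3) and the median difference of the mitosis genes at 0.41 (the others -0.13 to -0.01). In 3 mg/kg day 26 replicate 2, Top2a was at 11.0 (the others 27.3 to 34.8), Ccnb1 at 13.5 (the others 26.8 to 28.6) and Foxm1 at 2.27 (the others 11.9 to 16.03). Single genes stood apart in 4 further rats: Ccnb1 at 59.0 in 1 mg/kg day 3 replicate 3, Aurkb at 7.26 in 1 mg/kg day 26 replicate 1, Plk1 at 5.91 in control day 26 replicate 3 and Aurka at 20.1 in 3 mg/kg day 26 replicate 1.

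The effect of 3 mg/kg differed between days, by a test of the difference in limma, for Ccnb1 (0.67), Bub1 (0.47) and Melk (-0.84) from day 5 to day 8. These were 3 of 38 genes, in a test that called 13.4% of all genes. Control means of these 3 genes moved between the days as well. From day 8 to day 26 the effect differed for Melk (0.88), Top2a (-0.79), Kif11 (-0.67), Hmmr (-0.58) and Cenpe (-0.52). These were 5 of 38 genes, in a test that called 11.6% of all genes, and 0 were called with only the compared groups fitted. Cenpe did not exceed the 40th percentile of all signals on any array.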

How the results depend on the processing

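The 32 genes called on day 8 at 3 mg/kg numbered 21 to 32 over 14 alternatives and 25 to 34 with 1 rat left out; the lowest, 21, came from a filter at the 60th percentile that left 24 of the 38 genes. The counts of 0 at 1 mg/kg on all days, at 3 mg/kg on day 26, between the doses on days 3 and 26 and from day 3 to day 5 remained 0 throughout. Between the doses on day 5 the count was 1 when only those groups were fitted. Between the doses on day 8 (main count 8) it was 4 with no offset, 5 with the actin ratio as a covariate and 0 with only the compared groups, and 3 to 18 with 1 rat left out. At 3 mg/kg on day 3 (1) it was 0 with no offset or quantile normalization and 2 with array weights or the actin ratio, and 0 to 1 with 1 rat left out. At 3 mg/kg on day 5 (3) it was 1 with no offset and 9 with only the compared groups, and 1 to 3 with 1 rat left out. From day 5 to day 8 (3) it was 5 with an offset of 64, and 1 to 4 with 1 rat left out. From day 8 to day 26 (5) it was 8 with an offset of 64, quantile normalization or centring on the 75th percentile, 3 with array weights and 0 with only the compared groups, and 2 to 11 with 1 rat left out. For the controls, day 26 against day 3 (2), it was 4 with no offset, 1 with an offset of 64, 5 with array weights and 0 with only the compared groups, and 0 to 5 with 1 rat left out. The cause of these changes in the counts was not tested. For fits of only the compared groups or with 1 rat left out, calls over all genes were not counted. Whether those changes in count are particular to the mitosis genes was therefore not examined. With the replicate number as a block, the counts were 32 on day 8 at 3 mg/kg, 3 on day 5 and 1 on day 3. They were 10 between the doses on day 8, 4 from day 5 to day 8, 7 from day 8 to day 26 and 3 for the controls. Of 36 same-numbered pairs 5 correlated above 0.1 (-0.15 to 0.23). The labels name no pairing. The block had 1 effect per replicate number over all days, so these values cannot exclude pairing within a day. Mki67, Top2a, Ccnb1, Cdk1, Cenpf, Birc5 and Bub1 stayed called on day 8 under every alternative that tested them and with any rat left out; Foxm1, Plk1 and Aurka did not with no offset or quantile normalization, nor Plk1, Aurka and Aurkb with array weights, Aurkb with quantile normalization, Aurka with only the compared groups and Foxm1 as the mean of its probe sets. Low signal limits the dim genes, Cenpe, Ttk, Bub1b, Kif2c and Plk1 among them.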
